A study of Mus musculus with 4 samples.

Results

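The genes examined here encode the first proteins that act on an activated insulin receptor: Irs1, Irs2, Grb10, Grb14, Grb2, Shc1, Sos1, Pik3r1, Pik3r2 and Ptpn1. They were chosen by name, with earlier results of these data known. Every probe set that the platform annotation assigns to 1 of these 10 symbols alone was taken. That gave 23 of the 34945 probe sets with a single symbol. Each array had been hybridised with RNA from mouse osteoblasts, the cells that build bone. The 4 groups were a control labelled 0 h and cells given 10 nM insulin for 6, 12 or 24 h, with 1 array per group. All of the cells were described as lacking the IGF-1 receptor in the growth protocol, whereas the genotype entry of each sample reads IGF-1 null. Igf1r, by its brightest probe set, read 388, 259, 265 and 319 at 0, 6, 12 and 24 h, above the brightness filter described below on every array. Whether it lies in a deleted stretch is not known here, so it does not check either label. The treatment protocol also mentions serum starvation. The cells had been grown to confluency, and the labels leave unsaid whether they were a line or a primary culture. With 1 array per group there is no replicate spread, so no difference below carries an error or a test. The precision is that of a comparison between single arrays.

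Insulin binding switches on the tyrosine kinase of its receptor, which then phosphorylates docking proteins. The insulin receptor substrates Irs1 and Irs2 bring in the regulatory subunits of PI 3-kinase, encoded by Pik3r1 and Pik3r2, and so start the lipid signal that leads to Akt. Shc1 and Grb2 carry Sos1, an exchange factor for Ras, to the receptor and start the ERK cascade. Grb10 and Grb14 bind the active receptor and hold its kinase back, and Ptpn1 encodes a tyrosine phosphatase that removes the receptor's phosphates. In bone, mice without Irs1 or without Irs2 are known to have low bone mass.

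A probe set was called higher or lower when its intensities on 2 arrays differed by at least 1.5-fold, a log2 difference of 0.58. Probe sets whose mean log2 intensity over the 4 arrays lay under the median of all probe sets, an intensity of 66.2, were treated as dim. Of the 23 probe sets, 19 passed this filter, and the 4 dim ones belonged to Sos1 (3) and Grb14 (1). All 10 genes kept at least 1 probe set, and each gene was represented by its brightest. Grb10 passed through its insulin arrays, since all 3 of its probe sets lay under 66.2 at 0 h.

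The 0 h array stood apart from the 3 insulin arrays across the whole table. Xist, the RNA that coats the inactive X chromosome, had intensities of 109, 1636, 1278 and 1463 at 0, 6, 12 and 24 h, and the Y-linked Eif2s3y had 12.2, 295, 305 and 326. The medians of whole chromosomes also differed from 0 h, and they are given below for each member. Of 10 osteoblast markers 6 had a probe set with a single symbol, and 4, 6, 6 and 6 of them reached the filter value at 0, 6, 12 and 24 h. Runx2, Spp1, Bglap and Bglap2 were without one. The summed intensity of the 6 was 35113, 54880.0, 62700 and 65862, within which Ibsp, a bone matrix sialoprotein gene, had 202, 8849, 11706 and 13147 and Alpl, the alkaline phosphatase of bone, had 61.5, 523, 919.7 and 1139.5. The summed intensity of 7 macrophage and osteoclast markers was 2031, 4747, 5068 and 5412 in the same order, that of 4 adipocyte markers 1016, 2679.7, 4208 and 5449, and that of 5 chondrocyte markers 839.6, 4294, 6064 and 6710.4. These sums lean on their brightest genes. Col1a2, the brightest osteoblast marker, had 20828, 23219, 23933 and 24963, and Ctsk of the macrophage and osteoclast list had 1704, 3468, 3374 and 3503. Within that list the leukocyte marker Ptprc had 19.1, 66.1, 107 and 123, and Itgam stayed between 20.3 and 26.6. Of the chondrocyte markers Col2a1 had 239, 3151, 4643 and 5209 and Sox9 had 459, 618, 687 and 655. Acan and Col10a1 were also higher on each insulin array, and Matn1 stayed between 13.8 and 15.6. The adipocyte markers did not all go the way of their sum. Pparg was lower on each insulin array (223, 107, 184 and 196), while Fabp4, the brightest, had 664, 1879, 2883 and 3834. The sums of 4 myoblast markers were 209, 168, 165 and 174. For 4 endothelial markers they were 193, 225, 192 and 206. The part of other cell types, or of anything else that set the 0 h array apart, in the differences below was not tested. No untreated array at 6, 12 or 24 h was analysed here, so insulin and time in culture cannot be told apart. In a culture, more cells of a type and more RNA per cell cannot be told apart.

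Against the 0 h array, the members did not move as a block: the receptor inhibitors Grb10 and Grb14 were higher, the PI 3-kinase subunit Pik3r2 was lower, and most other members differed by less than 1.5-fold. At 6 h, 2 of 10 genes were called higher (Grb10 and Grb14), where 18.6% of all 11661 genes above the filter were, and 1 was called lower (Pik3r2), where 12.8% of all genes were. At 12 h, Irs1 joined the higher ones, giving 3 of 10 against 20.5% of all genes, and Pik3r2 alone was lower against 13.3%. The counts at 24 h were again 3 higher against 19.5% of all genes and 1 lower against 13.3%. With 10 genes, these shares were close to those of the whole table. The median log2 difference of the 10 genes was 0.24, 0.31 and 0.24 at 6, 12 and 24 h, where that of all genes was 0.01, 0.03 and -0.00012. These 3 comparisons share the 0 h array and are not independent of each other.

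Counted by probe set, 4 of 19 were higher at 6 h (17.5% of all 19910 probe sets above the filter), 6 at 12 h (18.6%) and 5 at 24 h (17.9%). At each time the higher ones included all 3 probe sets of Grb10, which passed the filter only through the insulin arrays. Probe sets of 1 gene are not separate genes, so these counts lean on Grb10. Lower calls numbered 4 at 6 h (13.4% of all), 5 at 12 h (15.2%) and 5 at 24 h (14.9%). At each time the lower ones included more than 1 probe set of Pik3r1, so these counts lean on Pik3r1 in the same way. For 16 of the 19, the 0 h value lay farther from the nearest insulin array than the insulin arrays lay from each other, which held for 62.6% of all probe sets above the filter. The exceptions were Grb2 1418508_a_at, Shc1 1422853_at and Sos1 1434389_at.

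**Figure D1:**
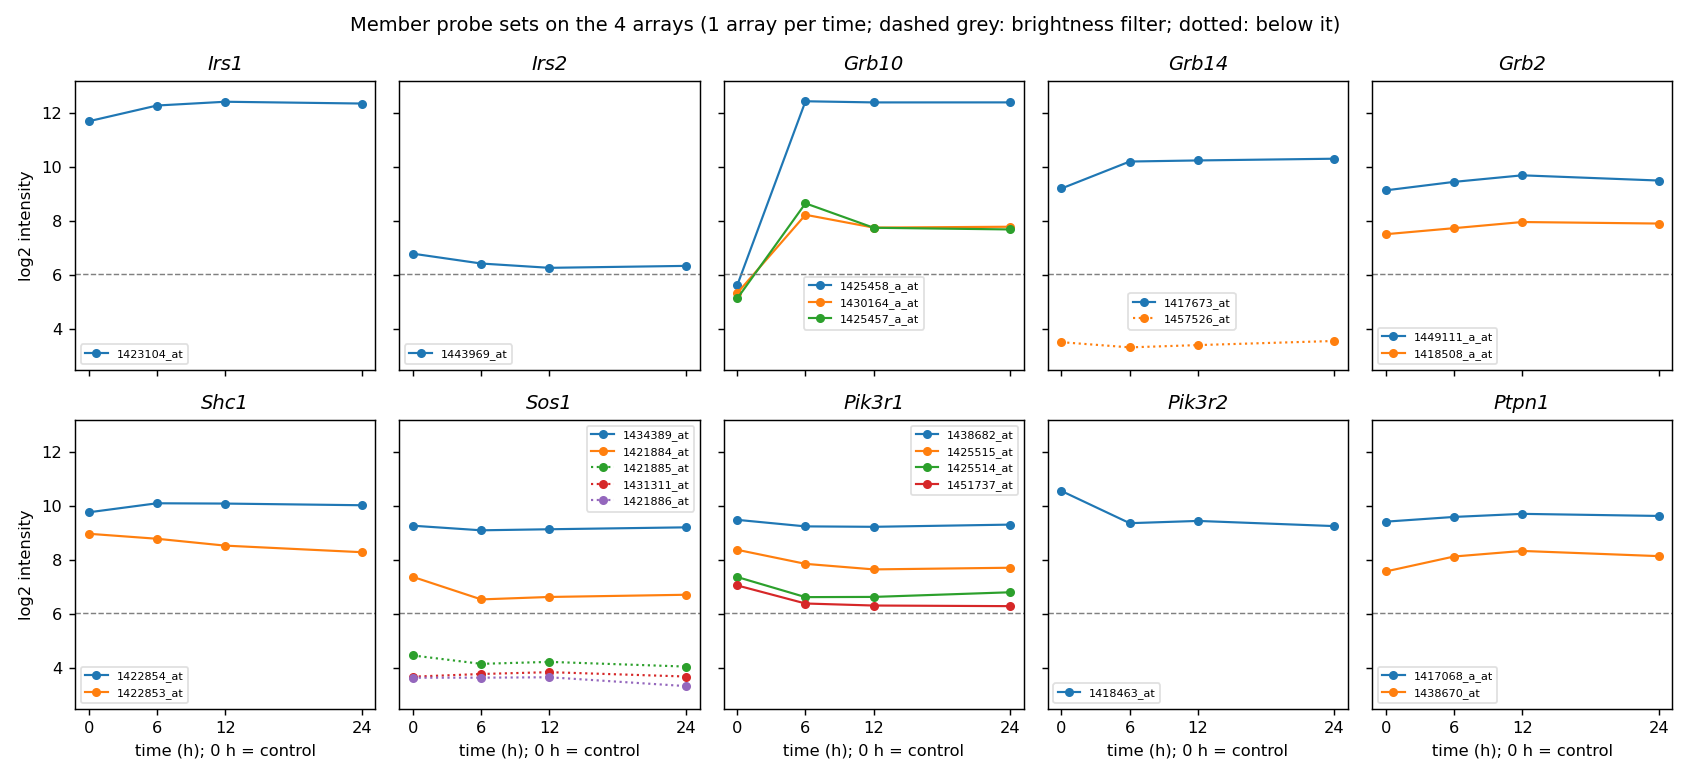
Log2 intensity of each of the 23 probe sets (lines) against time in hours, 1 panel per gene and 1 array per time, with the 0 h control at the left. The dashed line is the brightness filter and dotted lines are probe sets under it. Grb10 jumps between 0 h and 6 h in all 3 probe sets, while the remaining genes stay within about 1 log2 unit or little more.

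**Figure D2:**
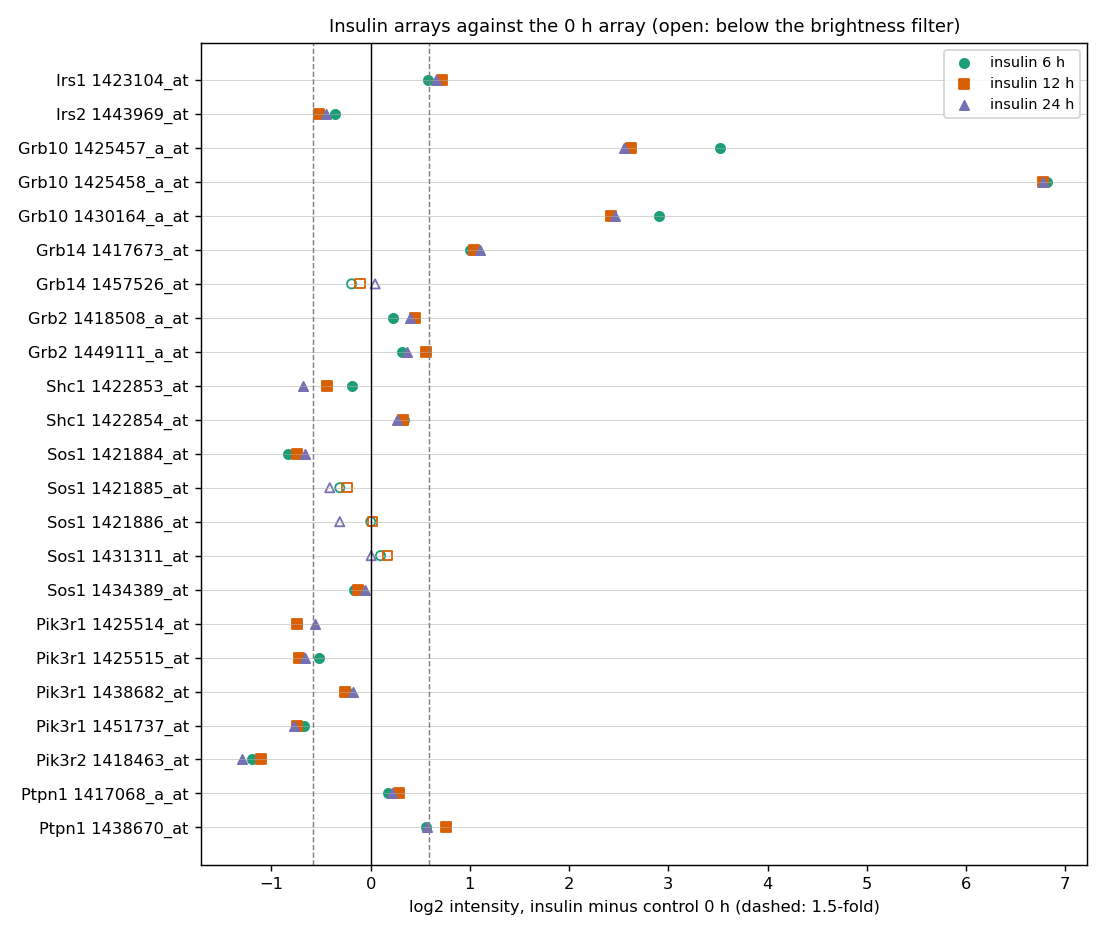
Log2 intensity on each insulin array minus the 0 h array (x axis) for each of the 23 probe sets (rows), with open symbols for dim probe sets and dashed lines at 1.5-fold. Grb10 lies far to the right, Grb14 1417673_at near 1, and Pik3r2 beyond -1 on every insulin array.

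The 2 receptor substrates lay on opposite sides of the 0 h array. Irs1, a docking protein for PI 3-kinase and Grb2, has the single probe set 1423104_at, with intensities of 3349, 5017, 5527 and 5279.5 at 0, 6, 12 and 24 h. All 3 insulin values were above the 0 h value, by 1.5, 1.65 and 1.58-fold, and the 6 h log2 difference of 0.583 fell just short of the threshold of 0.585. Irs2, the second substrate, is known in liver as a gene that FoxO factors induce in fasting and insulin represses. Its single probe set, 1443969_at, was close to the filter and had 112, 86.6, 77.6 and 81.5. The insulin values were 1.29, 1.44 and 1.37-fold lower than at 0 h, none of them past the threshold. Irs1 lies on chromosome 1, where the median gene was 0.25, 0.27 and 0.27 log2 units higher than at 0 h, and Irs2 lies on chromosome 8, where the median gene was -0.25, -0.22 and -0.27. With the chromosome medians subtracted, the Irs1 log2 differences were 0.34, 0.45 and 0.39, and no longer passed the threshold at 12 and 24 h. Those of Irs2 were -0.12, -0.30 and -0.18.

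The promoter windows of both substrate genes are shown because they held the same pair of short motifs. Irs1 and Irs2 lay on opposite sides of 0 h, but with chromosome medians subtracted neither passed the threshold. The windows come from RefSeq (GRCm38.p6), run from 250 bases before to 50 bases after the annotated start, and are printed 5′ to 3′ on the gene's strand. Capitals mark CACGTG, the palindromic E-box that helix-loop-helix leucine zipper factors read, and TGTTTTG, a form of the insulin response element that FoxO factors are known to bind in the Irs2 promoter.
Irs1, minus strand of chr1:82291390-82291689: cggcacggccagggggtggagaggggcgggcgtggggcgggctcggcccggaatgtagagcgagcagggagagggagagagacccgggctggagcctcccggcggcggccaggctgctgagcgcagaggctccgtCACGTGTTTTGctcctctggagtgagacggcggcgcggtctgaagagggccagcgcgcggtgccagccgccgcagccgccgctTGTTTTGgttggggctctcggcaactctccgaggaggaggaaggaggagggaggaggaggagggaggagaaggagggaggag
Irs2, minus strand of chr8:11008880-11009179: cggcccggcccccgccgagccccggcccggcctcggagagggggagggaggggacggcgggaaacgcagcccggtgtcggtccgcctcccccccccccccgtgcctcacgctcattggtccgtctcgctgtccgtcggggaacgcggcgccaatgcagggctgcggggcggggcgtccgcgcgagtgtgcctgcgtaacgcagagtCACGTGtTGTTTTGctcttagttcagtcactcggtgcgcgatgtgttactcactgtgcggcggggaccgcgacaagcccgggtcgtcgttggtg

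In the Irs1 window CACGTG began 115 bases before the start and overlapped a TGTTTTG that began at 111, and another TGTTTTG began at 32. In the Irs2 window CACGTG began 44 bases before the start and TGTTTTG at 37, without overlap. The windows shared the 10-base runs GTCACGTGTT and TGTTTTGCTC on the same strand. Both motifs were searched on both strands. CACGTG occurred in 7.15% of the 32851 windows of the table, TGTTTTG in 6.28%, and both together in 0.408%. Among the 14 windows of the 10 member genes, these 2 were the ones with either motif. A match is a description of the letters and shows no binding.

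Grb10 had the largest difference of the 10 genes. It is an adaptor that inhibits the insulin receptor and an imprinted gene, expressed from the maternal copy in most mouse tissues and from the paternal copy in neurons. Its brightest probe set, 1425458_a_at, had 49.6 at 0 h and 5596, 5434 and 5438 at 6, 12 and 24 h. The 3 insulin arrays agreed within 0.04 log2 units, and the log2 differences from 0 h were 6.82, 6.78 and 6.78. They ranked seventh, seventh and sixth from the highest among the 11661 genes at the 3 times. The 0 h value lay under the brightness filter. With 32 added to every intensity, which damps dim values, the differences were 6.11, 6.07 and 6.07. Chromosome 11, which carries Grb10, had medians of -0.02, 0.02 and -0.02, so the difference was as large with the chromosome median subtracted (6.84, 6.76 and 6.80).

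The other probe sets of Grb10 were also low at 0 h and higher on every insulin array, but they differed among the insulin arrays. Probe set 1425457_a_at, annotated to the same accession as the brightest one, had 35.3 at 0 h and 407, 217 and 208 at 6, 12 and 24 h. Probe set 1430164_a_at had 40.6, 303, 218 and 223. Both were highest at 6 h, whereas the brightest probe set was level. At 12 h, 1425457_a_at was 0.91 log2 units lower than at 6 h, a 1.87-fold difference and the tenth lowest of 19910 probe sets. Its log2 difference between 24 h and 6 h was -0.97, the third lowest of 19910. For 1430164_a_at the 12 h and 24 h arrays were 0.47 and 0.44 log2 units below 6 h, under the 1.5-fold threshold, and 1425458_a_at was 0.04 and 0.04 below. The annotation does not say which Grb10 transcripts each probe set reads. The suffix _a on all 3 marks probes designed to match alternative transcripts of a gene.

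RefSeq lists 2 start regions for Grb10, and both windows are shown because its probe sets disagreed among the insulin arrays. Capitals mark the GC box GGGCGG, or its complement on the other strand, a motif that Sp1 family factors bind.
Grb10, upstream start, minus strand of chr11:12037371-12037670: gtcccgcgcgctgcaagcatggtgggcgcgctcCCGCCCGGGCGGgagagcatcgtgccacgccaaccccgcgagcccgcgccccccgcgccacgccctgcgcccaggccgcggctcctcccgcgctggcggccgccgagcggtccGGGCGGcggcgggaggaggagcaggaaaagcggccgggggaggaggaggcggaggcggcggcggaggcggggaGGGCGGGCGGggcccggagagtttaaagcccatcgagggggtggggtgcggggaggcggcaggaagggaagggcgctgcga
Grb10, downstream start, minus strand of chr11:12027922-12028221: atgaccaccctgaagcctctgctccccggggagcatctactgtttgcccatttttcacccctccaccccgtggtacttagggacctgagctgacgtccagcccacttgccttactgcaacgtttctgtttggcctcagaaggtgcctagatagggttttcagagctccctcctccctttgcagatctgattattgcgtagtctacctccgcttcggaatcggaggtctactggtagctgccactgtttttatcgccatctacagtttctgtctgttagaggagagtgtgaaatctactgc

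The upstream Grb10 window had 80.0% G and C, 45 CpG pairs and 5 GGGCGG matches on the 2 strands, of which those beginning at 31 and 27 bases before the start overlap. The downstream window had 52.3% G and C, 9 CpG pairs and no match. Of all windows, 35.7% held GGGCGG at least once and 2.71% held it 5 or more times. The Grb14 window also held 5 matches. No probe set was assigned to either start here.

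Grb14, the second inhibitor of this family, was higher on each insulin array by about the same amount. Probe set 1417673_at had 595.6, 1190.1, 1224 and 1279 at 0, 6, 12 and 24 h, or 2.0, 2.05 and 2.15-fold above 0 h. The insulin arrays spanned 0.10 log2 units and all lay about 1 log2 unit above 0 h. Its other probe set, 1457526_at, was dim on every array (11.5, 10.1, 10.7 and 11.9) and showed no difference past the threshold. Averaging the dim and the bright probe set brought the log2 differences to 0.40, 0.47 and 0.57, all under the threshold. The median of chromosome 2, which carries Grb14 and Ptpn1, was within 0.03 log2 units of 0 h.

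Of both PI 3-kinase regulatory subunit genes among the members, Pik3r2 was called lower at all 3 times and Pik3r1, by its brightest probe set, was not called. Pik3r2, the p85-beta subunit, had 1521, 665.5, 705 and 617.5 at 0, 6, 12 and 24 h by probe set 1418463_at. All insulin values were below the 0 h value, by 2.29, 2.16 and 2.46-fold. Its chromosome 8 had negative medians, as given for Irs2, and with these subtracted the log2 differences were -0.95, -0.89 and -1.03, still past the threshold. One further probe set carries the symbols Pik3r2 and Ifi30 together and was not counted. It was dim, with 48.9, 40.0, 38.0 and 36.8.

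Pik3r1 encodes the p85-alpha subunit and its shorter forms, and its 4 probe sets were each lower on the insulin arrays by unequal amounts. The brightest, 1438682_at, had 725, 613, 606 and 641.5, with log2 differences of -0.24, -0.26 and -0.18. The remaining 3, all annotated to 1 accession, differed more. Probe set 1425515_at had 336, 234, 203 and 212, and 1425514_at had 167, 99.6, 100.1 and 113. Probe set 1451737_at had 135, 84.6, 80.3 and 79.0. These 3 lay between 1.43 and 1.70-fold below 0 h, with 7 of their 9 differences past the threshold. Among all probe sets above the filter, 13.4%, 15.2% and 14.9% were called lower at 6, 12 and 24 h. The 9 differences share 1 gene and the 0 h array, so they are not separate observations. Chromosome 13 had medians of -0.05, -0.05 and -0.07.

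In the arm that leads to Ras, the brightest probe sets of Grb2, Shc1 and Sos1 differed from 0 h by less than 1.5-fold, while dimmer probe sets of Sos1 and Shc1 passed the threshold. Grb2, the adaptor that carries Sos1, had 567, 705.5, 835 and 730.4 by 1449111_a_at and 184, 215, 252 and 242 by 1418508_a_at. Both were highest at 12 h, and the largest difference was 1.47-fold. Sos1 had 624, 554, 569 and 598 by its brightest probe set, 1434389_at, where the insulin arrays were 1.13, 1.10 and 1.04-fold lower. Its second probe set above the filter, 1421884_at, had 167, 93.9, 100.03 and 106, or 1.78, 1.67 and 1.58-fold lower, past the threshold at all 3 times. The median gene of chromosome 17, which carries Sos1, was -0.19, -0.15 and -0.20. The 3 dim Sos1 probe sets stayed between 10.1 and 22.3 on every array.

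Shc1, an adaptor made in a long and in shorter forms, gave opposite directions by its 2 probe sets, which are annotated to 1 accession. Probe set 1422854_at had 880.2, 1109.8, 1101 and 1055 at 0, 6, 12 and 24 h and was 1.26, 1.25 and 1.2-fold above 0 h. Probe set 1422853_at had 507, 446, 374 and 316, and was lower at each later time. Its 24 h value was 1.61-fold below 0 h, past the threshold, and its log2 difference between 24 h and 6 h was -0.50, short of it. The Shc1 chromosome, 3, had medians of -0.24, -0.21 and -0.21. No direction is given for Shc1 as a gene.

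Ptpn1, the phosphatase PTP1B, was slightly higher on each insulin array. Its brightest probe set, 1417068_a_at, had 692, 781, 846 and 802, at most 1.22-fold above 0 h. The other, 1438670_at, had 193, 283, 326 and 286, or 1.47, 1.69 and 1.48-fold, with the 12 h difference past the threshold. Both probe sets were highest at 12 h, as those of Grb2 were.

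**Figure D3:**
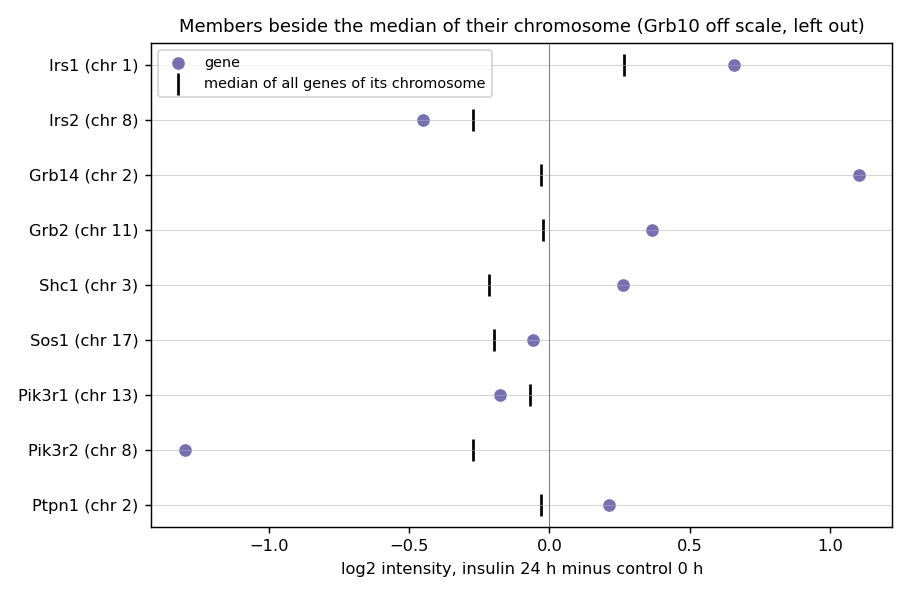
Log2 intensity at insulin 24 h minus control 0 h (x axis) for the representative probe set of 9 members (points), beside the median of all genes above the filter on the same chromosome (bars). Grb10, at 6.78, is left out. Irs1 and Irs2 lie on the same side of 0 as their chromosomes, and Grb14 and Pik3r2 lie about 1 log2 unit from theirs.

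Between the insulin arrays, which do not involve the 0 h array, the representative probe sets of the members were nearly level, as most genes were. None of the 10 representative probe sets was 1.5-fold apart in any of the 3 pairs. Among all genes, 1.14% passed the threshold upwards and 0.334% downwards for 12 h over 6 h. For 24 h over 6 h these shares were 1.68% and 0.12%, and for 24 h over 12 h they were 0.103% and 0.103%. By probe set, 1 of 19 was lower at 12 h than at 6 h (0.668% of all) and 1 at 24 h than at 6 h (0.492% of all), in both cases Grb10 1425457_a_at. No member probe set was called lower between 24 h and 12 h (0.0804% of all), and none was called higher in any pair, where 0.909%, 1.4% and 0.151% of all probe sets were for 12 h over 6 h, 24 h over 6 h and 24 h over 12 h. After Grb10, the next farthest was Shc1 1422853_at at 24 h, the 206th lowest of 19910 against 6 h.

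**Figure D4:**
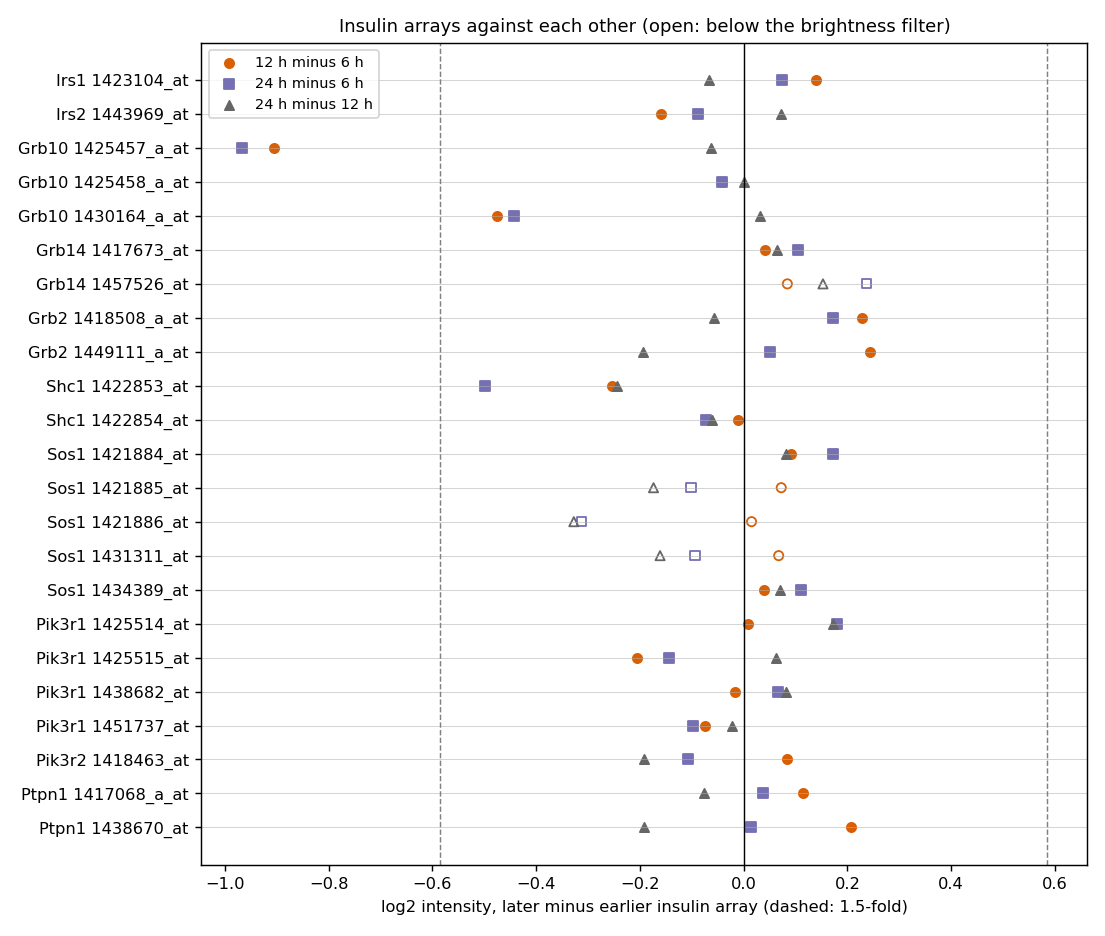
Log2 intensity of the later minus the earlier insulin array (x axis) for each of the 23 probe sets (rows), with dashed lines at 1.5-fold and open symbols for dim probe sets. Grb10 1425457_a_at lies past the lower line for 12 h minus 6 h (-0.91) and 24 h minus 6 h (-0.97), and the remaining points lie inside both lines.

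Around the members, 70 other genes of proximal insulin signalling were listed by role, of which 60 were analysed here and 50 passed the filter. At 6, 12 and 24 h, 7, 9 and 10 of the 50 were called higher, which is 14%, 18% and 20%, beside the 18.6%, 20.5% and 19.5% of all genes. Lower calls numbered 6, 3 and 3, which is 12%, 6% and 6%, beside 12.8%, 13.3% and 13.3%. The median log2 differences of the 50 were 0.04, 0.06 and 0.01. None of the 50 was 1.5-fold apart between insulin arrays.

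Of 14 other receptor adaptors, 1, 1 and 2 were higher at 6, 12 and 24 h and 1, 0 and 0 lower. Among all genes, 18.6%, 20.5% and 19.5% were higher at these times and 12.8%, 13.3% and 13.3% lower. The genes named from each list were picked for differences past 1.5-fold at all 3 times, so they do not stand for their list. Cbl, a ubiquitin ligase and adaptor, had 307, 500.0, 511 and 509 at 0, 6, 12 and 24 h. Of 10 other PI 3-kinase and phosphoinositide genes, 2, 3 and 3 were higher and 0, 1 and 1 lower. Pik3r3, a further regulatory subunit (p55-gamma), had 308, 813, 747 and 820.7 and was 2.64-fold above 0 h at 6 h, opposite to Pik3r1 and Pik3r2. Pik3c2a, a class II PI 3-kinase, had 781, 1249.5, 1238 and 1316.

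Phosphatases and inhibitors of the receptor other than Ptpn1 numbered 15, of which 2, 3 and 2 were higher and 3, 0 and 0 lower. The shares of all genes were again 18.6%, 20.5% and 19.5% higher and 12.8%, 13.3% and 13.3% lower. Ptprf, the receptor phosphatase LAR, which can dephosphorylate the insulin receptor, had 54.5, 1406, 1653 and 1566. It was dim at 0 h, as Grb10 was, and neither of its 2 other probe sets above the filter pointed the other way. Ptpre, another receptor-type phosphatase, had 116, 240.4, 205 and 255. Of 11 other Ras and ERK cascade genes, 2, 2 and 3 were higher and 2, 2 and 2 lower. Nras, a Ras protein, had 1536, 875, 861 and 869.6, and Rasa1, a GTPase activator that turns Ras off, had 2041, 1275, 1046 and 1251. The kinase Braf had 351, 599, 619.8 and 614.

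**Figure D5:**
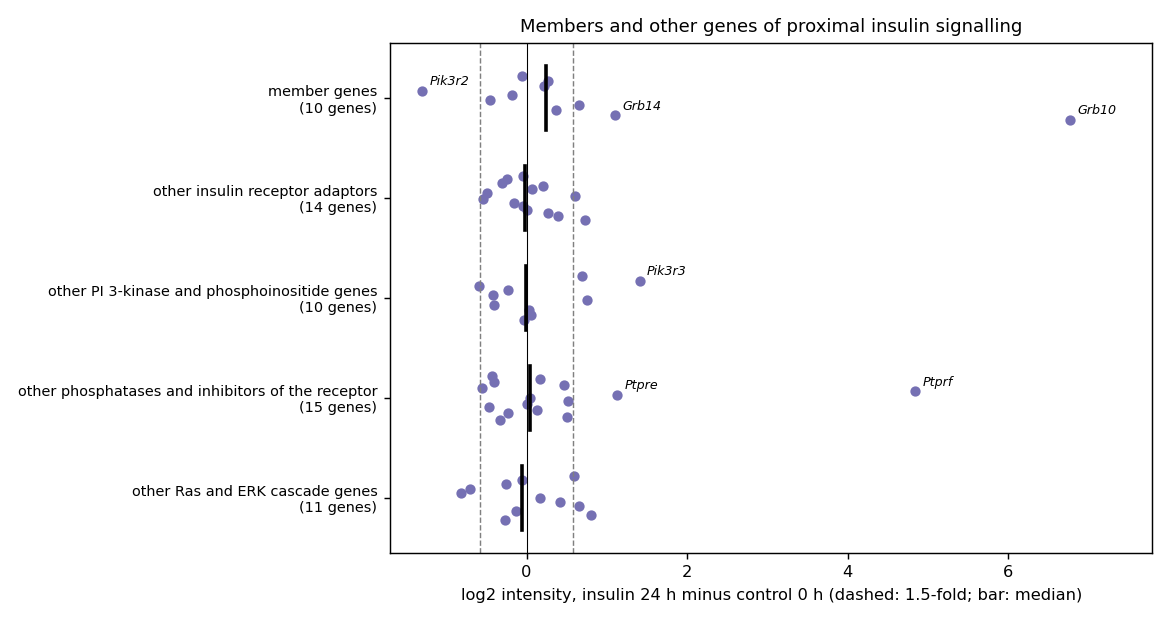
Log2 intensity at insulin 24 h minus control 0 h (x axis) for each gene above the filter (points) in the member set and in 4 lists of related genes (rows), with the median of each as a bar and dashed lines at 1.5-fold. Genes at least 1 log2 unit from 0 are named. The medians of the 4 lists lie within 0.06 of 0, and that of the members is 0.24.

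Genes with the pattern most like a member were sought by the distance between log2 intensities over the 4 arrays, each gene centred on its own mean, for the members that spanned at least 1 log2 unit. Nearest to Grb10 were Rps4l (distance 0.10; 20.5, 2407, 2422 and 2225 at 0, 6, 12 and 24 h), Zic1 (0.21) and Epha3 (0.22), each dim at 0 h. Nearest to Grb14 were Kif13a (0.03; 198, 407, 413 and 431), Irgq (0.03) and Smarcd3 (0.04). The genes closest to Pik3r2 were Vegfc (0.07; 785, 329, 342 and 313), Noc3l (0.07) and Fip1l1 (0.07). With 4 arrays, of which 1 stands apart, such a likeness rests mostly on the step from 0 h. How many genes share each pattern was not counted.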

How the data were processed

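RNA of mouse osteoblasts was measured on Affymetrix arrays, from cRNA made with a 3′ IVT kit as the labels' protocols state, with 1 array for each of 4 groups. The deposited table holds 1 intensity per probe set and array, and the submitters' processing notes name RMA, which corrects background, normalizes and summarises probes. No source used here names its software or version. The intensities are linear, from 7.34 to 31292, with array medians between 65.0 and 65.7, so log2 was taken. RMA pulls dim probe sets together, so low intensities understate differences.

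Of 45037 probe sets that are not controls, the platform annotation named 1 symbol for 34945, several for 932 and none here for 9160. The brightest probe set stood for each of 18193 genes, and 11661 genes and 19910 probe sets passed the filter at the median of mean log2 intensity. With 1 array per group there was no test. The members and lists were chosen with earlier results of these data known. Named outside the members were up to 3 genes per list that were 1.5-fold from 0 h in 1 direction at all 3 times, by the smallest difference, and the 3 nearest patterns, predicted transcripts passed over. The calling step was run on simulated arrays with known changes added. There the 0 h array differed from the others only by these changes and random noise. The run therefore says nothing about calls against the measured 0 h array, which stood apart. RefSeq tables (GRCm38.p6) gave chromosomes, gene order and promoter windows for all 10 members. Python 3.11.15, numpy 2.4.6, pandas 2.3.3, statsmodels 0.14.6 and matplotlib 3.10.9 were used. The alternatives are listed with their effect in the closing section.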

Additional observations from a re-analysis of the deposited data

How the results depend on the processing

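No paired analysis was possible because each group holds 1 array. Other fold thresholds, brightness filters, scalings and probe set rules were tried, and the cause of a change was not tested beyond the setting itself. At a 1.2-fold threshold the member genes called against 0 h numbered 7 at 6 h, 8 at 12 h and 6 at 24 h, in place of 3, 4 and 4, where 59.9%, 62.5% and 61.6% of all genes were called. The listed pathway genes called against 0 h at 6, 12 and 24 h numbered 31, 29 and 30 at 1.2-fold and 3, 2 and 3 at 2-fold (15.2%, 17.0% and 16.0% of all genes), in place of 13, 12 and 13. With chromosome medians removed, 5, 4 and 5 of the 50 listed genes were higher and 4, 5 and 5 lower. Those counts stand in place of 7, 9 and 10 higher and 6, 3 and 3 lower. The share of all genes under that setting was not counted. Between insulin arrays the listed genes called at 1.2-fold numbered 4 for 12 h over 6 h, 4 for 24 h over 6 h and 1 for 24 h over 12 h (12.5%, 11.1% and 7.06% of all genes), in place of 0, and without a filter or with one at the 25th percentile 1 was called for 24 h over 6 h. Of the recomputed member differences against 0 h, 191 kept their direction and side of the threshold, 5 lost the threshold, 3 gained it and 5 below it changed sign. None past the threshold changed sign. Those that lost it were Irs1 at 12 and 24 h with chromosome medians removed, and Grb14 at all 3 times with the mean of all probe sets. With all probe sets averaged, the Grb10 differences were 4.42, 3.94 and 3.93. Leaving out suffixed probe sets removes Grb10 and Grb2. With log2(intensity + 32), the counts of member probe sets called stayed within 1.5 times the values given. With 6, 12 or 24 h as the comparison array, 0 members stood 1.5-fold apart from it on all other arrays, against 3 with 0 h. The same count was not made over all genes, so it does not set the members apart from the whole table.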

Other observations

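The neighbours of each member on its chromosome were read as well, a choice made after the values were seen. For each member the 5 nearest genes above the filter on either side were taken in RefSeq order, and their log2 differences from 0 h were averaged over the insulin arrays. Around Grb10, 7 of 10 neighbours were at least 1.5-fold higher and 1 lower, where 19.5% and 12.9% of all genes were. The higher ones included Ddc, an aromatic amino acid decarboxylase gene next to Grb10 (23.1, 113, 91.1 and 96.2 at 0, 6, 12 and 24 h), Cobl, an actin nucleator gene (38.5, 149.6, 152 and 165), Egfr (152, 704, 776 and 830.0) and Igfbp3 (20.005, 695, 968 and 769.6). Fignl1, which lies on the same side as Ddc, was lower (373, 106, 89.9 and 95.02). Of the higher ones, Igfbp3, Ddc, Cobl and Plek lay under the filter value of 66.2 at 0 h. A gene that dim at 0 h passes only by being higher on insulin arrays, so the filter in part fixed these calls. The same holds for some higher neighbours of other members. What the counts owe to the filter was not tested. Around Pik3r2, 0 of 10 neighbours were higher and 3 lower, among them Ifi30 with a mean log2 difference of -1.30, and around Irs2 0 were higher and 1 lower. Grb14 had 4 higher and 2 lower neighbours, and Irs1 also had 4 and 2. Ptpn1, which was not called, had 4 and 1, and Sos1 had 2 and 2. Grb2, Shc1 and Pik3r1 each had 0 and 1.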
